A study of Mus musculus with 10 samples.

Results

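Of 19938 genes tested in the hippocampus of Dp5/Dp1 mice, a model of Down syndrome, 8 genes of endosome and Golgi sorting were followed. Dop1b and Vps26c (formerly Dscr3) lie in the Dp1Rhr duplication and have 3 copies in these mice, and Vps26a, Vps26b, Vps29, Vps35, Mon2 and Snx27 lie elsewhere and have 2 copies. The genes were chosen by name and function, and each was read by its only probe set with 1 gene symbol. The study profiled the whole hippocampus of 5 Dp5/Dp1 mice and 5 littermate control mice with 10 Affymetrix Mouse Gene ST arrays, each holding the RNA of 1 mouse. Dp5/Dp1 mice carried both the Dp5Yah and the Dp1Rhr segmental duplication of mouse chromosome 16 (Mmu16), on opposite homologues, and control mice carried neither. All mice were male, 16 weeks old and labelled as C57BL/6N. The duplications are germline, so every cell type of the tissue carries them, and the arrays do not tell apart more RNA per cell from more cells of one type. Levels are RMA log2 expression, with means ± SD of 5 mice in each group. A difference is the mean of Dp5/Dp1 less that of control mice, on the log2 scale ± SE.

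Endosomes receive proteins taken up from the cell surface and send them to the lysosome for breakdown, back to the surface, or to the trans-Golgi network. Retromer, built from VPS35, VPS29 and VPS26A or VPS26B, takes cargo off the route to the lysosome, and SNX27 brings it surface receptors that carry a PDZ-binding motif. Retriever is a related complex in which VPS26C and VPS35L join the same VPS29, with SNX17 as its cargo adaptor. DOP1B and MON2 are large partner proteins at the endosome and trans-Golgi membrane that act with the flippase ATP9A. In neurons these routes return receptors to the synapse and move the amyloid precursor protein.

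The stretches of 250 bases before the annotated start are shown for the triplicated pair and for the 2-copy Vps26 paralogues, the genes on which the paired comparisons turn (RefSeq, GRCm38.p6, each 5′ to 3′ on the strand of its gene). Capitals mark matches to a searched motif on either strand. Dop1b lies at chr16:93711907-93810588 on the plus strand and Vps26c at chr16:94497724-94526629 on the minus strand, 687136 bases apart. The windows shown are chr16:93711657-93711906 (plus strand), chr16:94526630-94526879 (minus strand), chr10:62486806-62487055 (minus strand) and chr9:27030095-27030344 (minus strand).
Dop1b: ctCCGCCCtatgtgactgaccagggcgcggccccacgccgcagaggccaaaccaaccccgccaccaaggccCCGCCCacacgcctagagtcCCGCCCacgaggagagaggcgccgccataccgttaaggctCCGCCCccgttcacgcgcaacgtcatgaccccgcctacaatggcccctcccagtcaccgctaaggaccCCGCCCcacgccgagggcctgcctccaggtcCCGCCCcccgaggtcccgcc
Vps26c: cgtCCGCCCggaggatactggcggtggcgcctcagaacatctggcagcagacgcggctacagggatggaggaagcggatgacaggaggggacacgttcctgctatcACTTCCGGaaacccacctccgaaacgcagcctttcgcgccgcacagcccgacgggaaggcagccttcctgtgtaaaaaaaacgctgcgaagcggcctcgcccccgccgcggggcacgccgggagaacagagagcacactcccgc
Vps26a: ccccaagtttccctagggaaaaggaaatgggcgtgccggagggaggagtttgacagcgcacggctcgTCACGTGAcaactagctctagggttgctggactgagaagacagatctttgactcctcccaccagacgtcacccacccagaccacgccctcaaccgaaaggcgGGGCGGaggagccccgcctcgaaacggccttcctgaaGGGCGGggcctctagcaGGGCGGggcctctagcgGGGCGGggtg
Vps26b: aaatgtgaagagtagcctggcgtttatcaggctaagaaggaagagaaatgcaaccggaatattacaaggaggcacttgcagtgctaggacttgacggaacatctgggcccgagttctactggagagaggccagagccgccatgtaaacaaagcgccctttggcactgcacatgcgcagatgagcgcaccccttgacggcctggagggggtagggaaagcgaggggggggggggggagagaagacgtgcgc

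The windows shown for both triplicated genes were rich in CG pairs, with 26 in Dop1b and 27 in Vps26c, against a median of 6 over 32544 promoter windows. This was not particular to the pair. Of the 2-copy genes, Vps26a held 18 in the window shown, Vps29 held 22 and Vps26b held 12. Of the motifs searched, the GC box (GGGCGG) matched 6 times in Dop1b and 1 time in Vps26c, and 33.0% of all windows held it. Vps26c also held an ETS motif (CCGGAAGT, read here on its reverse strand as ACTTCCGG), found in 2.90% of windows. Vps26a held 4 GC boxes and an E-box (CACGTG, 6.04% of windows) that lies inside TCACGTGA, the core of the element bound by the lysosomal regulator TFEB (0.793% of windows). Vps26b held none of the motifs, which also included CCAAT (33.8%), TATAAA (12.3%) and TGACGTCA (1.56%). A second annotated Dop1b start, with its window at chr16:93729849-93730098, held none of the motifs either, and 12 CG pairs. A second Vps26a window, chr10:62486599-62486848, held 28 CG pairs, 2 E-boxes, 1 of them inside TCACGTGA, and 3 GC boxes. It overlaps the first Vps26a window, and 2 of these 3 GC boxes are among the 4 counted there. Vps29 had 2 GC boxes in its window. Vps35, Mon2 and Snx27 were not examined. A match is a run of letters and says nothing of binding.

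Dop1b and Vps26c rose in Dp5/Dp1, and no member was called lower. With limma and Benjamini-Hochberg adjustment over all genes (adjusted p under 0.05, here "called"), 2 of the 8 members were called higher in Dp5/Dp1, against 0.201% of all genes called higher and 0.206% called in either direction. Both are triplicated. The 6 members with 2 copies differed by -0.10 to 0.08.

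Dop1b measured 10.29, 10.17, 10.26, 10.33 and 10.23 in Dp5/Dp1 mice, against 9.84, 9.89, 9.98, 9.87 and 9.93 in control mice. All 5 Dp5/Dp1 arrays lay above all control arrays, as for 0.762% of all genes. Means were 10.26 ± 0.06 in Dp5/Dp1 and 9.90 ± 0.05 in control mice, a difference of 0.36 ± 0.04 (limma adjusted p = 0.00118). As a fold change this was 1.28, with a 95% interval of 1.21 to 1.35. The rise was larger in size than that of 99.6% of all genes, and it was called, or passed by FCROS, under each of the 22 alternatives run (0.34 to 0.39). Some of these, such as the probe set rules, cannot change the difference of a gene with 1 probe set.

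Vps26c measured 9.67, 9.64, 9.78, 9.72 and 9.57 in Dp5/Dp1 mice, against 9.26, 9.06, 9.45, 9.25 and 9.20 in control mice. Again the groups did not overlap, and the smallest space between them lay between Dp5/Dp1 replicate 5 and control replicate 3. Means were 9.68 ± 0.08 in Dp5/Dp1 and 9.24 ± 0.14 in control mice, a difference of 0.43 ± 0.06 (limma adjusted p = 0.0144). The fold change was 1.35, with a 95% interval of 1.23 to 1.49. Its spread within groups was 0.113, wider than that of 83.9% of genes, whereas that of Dop1b was 0.057. Leaving out Dp5/Dp1 replicate 3 or control replicate 5 kept the size (0.41 and 0.42) but ended the call (limma adjusted p = 0.0532 and 0.0561), as did leaving out Dp5/Dp1 replicates 2 and 5 together (0.48, adjusted p = 0.0548) and choroid plexus and habenula markers as covariates (0.44, adjusted p = 0.084).

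The upper ends of both intervals lay below 1.5-fold, the ratio of 3 copies to 2 (0.585 on the log2 scale). How far array values scale with the RNA ratio was not measured here.

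**Figure D1:**
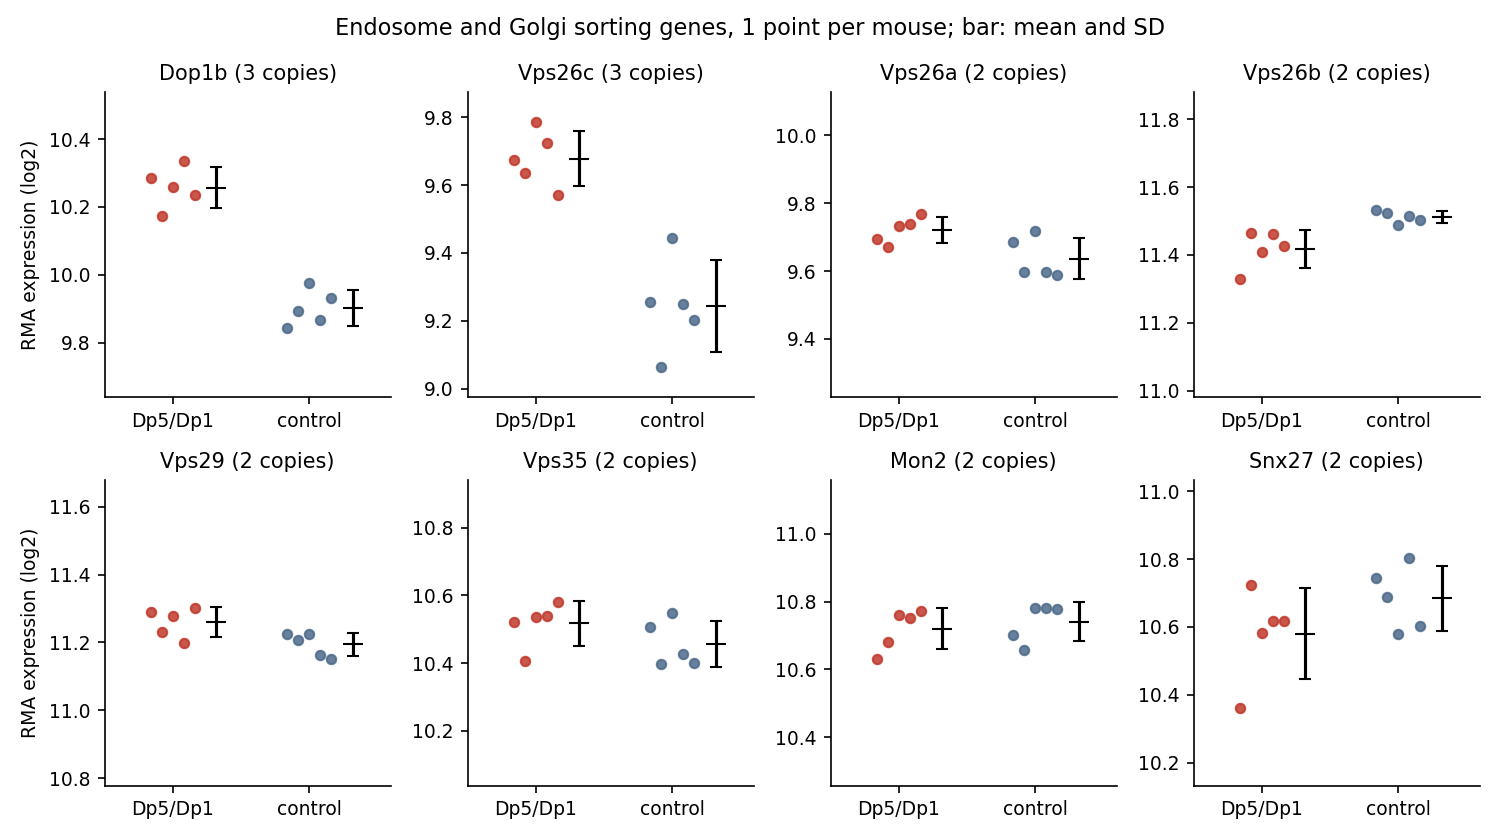
RMA log2 expression (vertical axis, the same span of 0.9 in each panel) of the 8 genes, 1 point per mouse, Dp5/Dp1 left and control right, with mean and SD bars. The groups are apart and Dp5/Dp1 is higher in Dop1b and Vps26c, Vps26b is apart by less in the opposite direction, and the groups overlap in the other panels.

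Neither paralogue of Vps26c in retromer was called, and their differences had opposite signs. Vps26a, the more widely expressed retromer subunit, measured 9.69, 9.67, 9.73, 9.74 and 9.77 in Dp5/Dp1 mice, against 9.68, 9.60, 9.72, 9.60 and 9.59 in control mice. 3 Dp5/Dp1 arrays lay above the highest control, and the groups overlapped. The difference of 0.08 ± 0.03 passed an unadjusted threshold of 0.05 and not the adjustment (limma adjusted p = 0.806).

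Vps26b, the retromer subunit prominent in brain, measured 11.33, 11.46, 11.41, 11.46 and 11.43 in Dp5/Dp1 mice, against 11.53, 11.52, 11.49, 11.51 and 11.50 in control mice. All 5 Dp5/Dp1 arrays lay below all control arrays, as for 0.321% of all genes. The difference was -0.09 ± 0.03 (limma adjusted p = 0.741), and control arrays spread by only 0.02 (SD). Dp5/Dp1 replicate 1 was the lowest array, and without it the difference was -0.07.

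Across the 8 members, unadjusted p under 0.05 was reached by 3 with a higher mean in Dp5/Dp1 (3.39% of all genes) and by 1 with a lower mean (2.67% of all genes; 6.06% in either direction). FCROS, the rank method of the study rewritten from its description, passed Dop1b and Vps26c and no other member, and 5.06% of all genes. Its cut is scaled to the spread of ranks over all genes, so the method itself largely sets that share.

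The shared subunit Vps29 ran from 11.20 to 11.30 in Dp5/Dp1 mice (median 11.28) and from 11.15 to 11.22 in control mice (median 11.21). 4 Dp5/Dp1 arrays lay above the highest control, and the difference was 0.07 ± 0.03 (limma adjusted p = 0.824). Vps35, the scaffold of retromer, ran from 10.41 to 10.58 in Dp5/Dp1 and from 10.40 to 10.55 in control mice, a difference of 0.06 ± 0.04 (limma adjusted p = 0.862). The ranges of Vps35 overlapped over most of their length.

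Mon2, the partner of Dop1b, ran from 10.63 to 10.77 in Dp5/Dp1 and from 10.66 to 10.78 in control mice. Its difference was -0.02 ± 0.04, with a 95% interval of -0.11 to 0.06 (limma adjusted p = 0.95), and its sign turned without Dp5/Dp1 replicate 1. Snx27 ran from 10.36 to 10.72 in Dp5/Dp1 and from 10.58 to 10.80 in control mice. Dp5/Dp1 replicate 1 was again the lowest array. The difference of Snx27 was -0.10 ± 0.07 with an interval of -0.25 to 0.04 (limma adjusted p = 0.845), and without that array it was -0.05. These intervals bound the change, and a p above the threshold does not show that the level was the same.

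**Figure D2:**
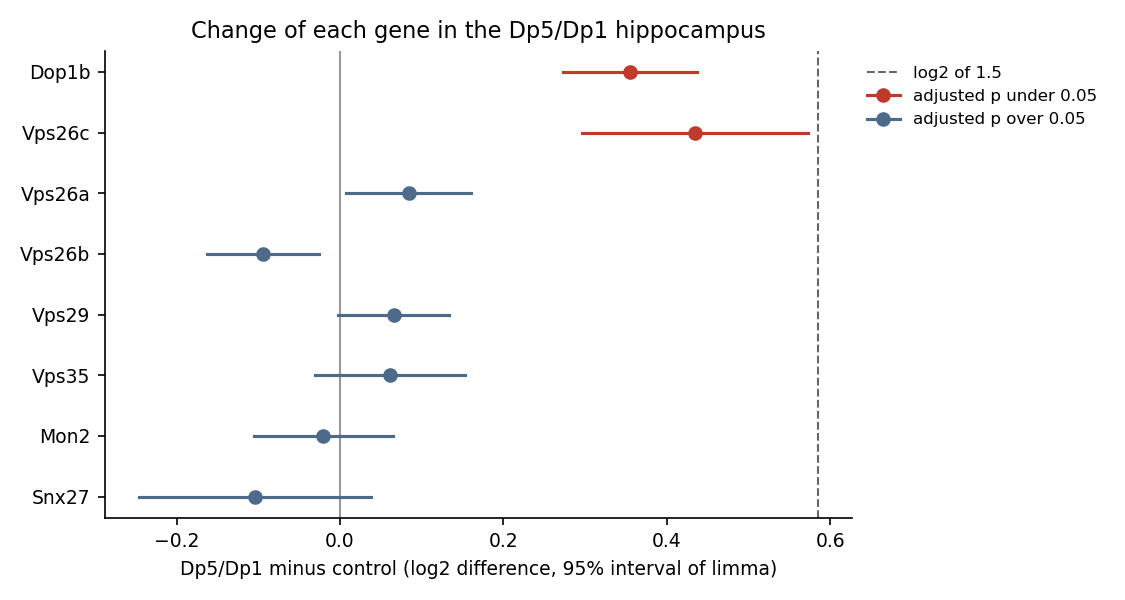
Log2 difference of Dp5/Dp1 minus control (horizontal axis) with the 95% interval of limma for each gene, red where the adjusted p was under 0.05. Dop1b and Vps26c stand at 0.36 and 0.43, short of the dashed line at 0.585, and the other 6 genes lie between -0.10 and 0.08.

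Whether the change of Vps26c differed from those of its paralogues was tested within arrays. For each mouse the level of one gene was subtracted from that of another, and the gaps were compared between groups by an exact two-sided permutation test over 252 assignments (smallest p 0.00794), adjusted over the 4 gaps. Levels of different probe sets are not comparable, so only the change of a gap is read. The gap of Vps26c minus Vps26a was -0.04 ± 0.09 in Dp5/Dp1 and -0.39 ± 0.10 in control mice, a change of 0.35 ± 0.06 (exact permutation p = 0.00794, adjusted p = 0.0159). Each Dp5/Dp1 array lay above each control.

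The gap of Vps26c minus Vps26b was -1.74 ± 0.10 in Dp5/Dp1 and -2.27 ± 0.15 in control mice, a change of 0.53 ± 0.08 (exact permutation adjusted p = 0.0159), without overlap. Between the retromer paralogues themselves, the gap of Vps26a minus Vps26b was -1.70 ± 0.06 in Dp5/Dp1 and -1.88 ± 0.07 in control mice. It changed by 0.18 ± 0.04 (exact permutation adjusted p = 0.0212), with 4 of 5 Dp5/Dp1 arrays above all controls. In these gaps the Vps26 genes changed by different amounts, although neither retromer paralogue was called alone. The gaps were chosen with earlier results of these data known, and such gaps over other gene pairs were not examined. The gap of Dop1b minus Vps26c was 0.58 ± 0.07 in Dp5/Dp1 and 0.66 ± 0.12 in control mice. Its change of -0.08 ± 0.06 had an interval of -0.22 to 0.06 (exact permutation adjusted p = 0.262), so a difference between the rises of the triplicated pair was not detected.

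**Figure D3:**
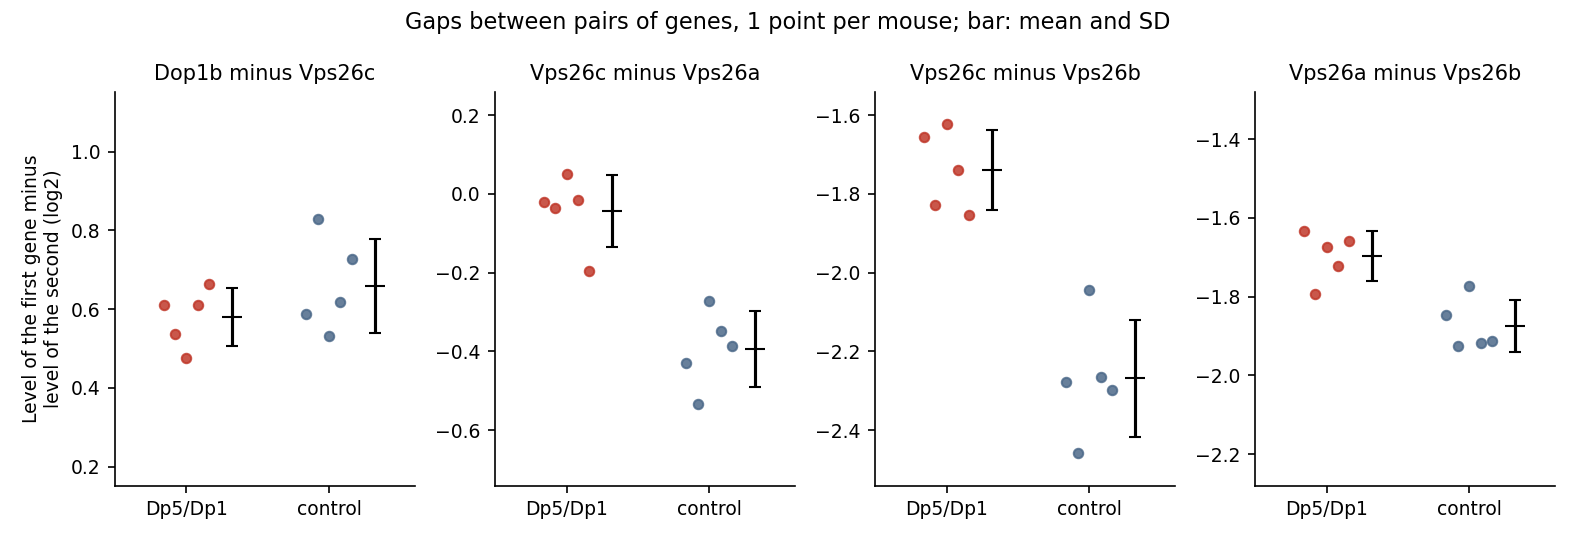
Level of the first gene minus level of the second (log2, vertical axis, a span of 1 in each panel) in each mouse, Dp5/Dp1 left and control right, with mean and SD bars. The groups are apart for both gaps that hold Vps26c and a retromer paralogue, apart but for 1 Dp5/Dp1 array for Vps26a minus Vps26b, and mixed for Dop1b minus Vps26c.

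Dop1b and Vps26c were next compared with the genes around them. The 27 others were listed by name from Cbr1 to Fam3b, not taken by position, so neighbours and ranks are among listed genes. Of these 27 Dp1Rhr genes, 10 were called higher, against 0.201% of all genes. The median difference was 0.17 over all 27 and 0.39 over the 10 called, which ran from 0.27 to 0.49. Of the 27, 9 were among the dimmest 40% of all genes, and none of those was called. Dop1b and Vps26c, which were not among the dimmest, lay inside the range of the called genes and above the median of all 27. Dop1b sat between Cbr3, a carbonyl reductase (0.49 ± 0.06, limma adjusted p = 0.0034), and Morc3, a nuclear body protein (0.42 ± 0.06, adjusted p = 0.01). Vps26c sat between Ttc3, a ubiquitin ligase (0.27 ± 0.04, adjusted p = 0.00721), and Dyrk1a, a protein kinase (0.30 ± 0.04, adjusted p = 0.00344). Each of these 4 neighbours rose, and 7 other genes of the interval had a larger difference than Dop1b.

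**Figure D4:**
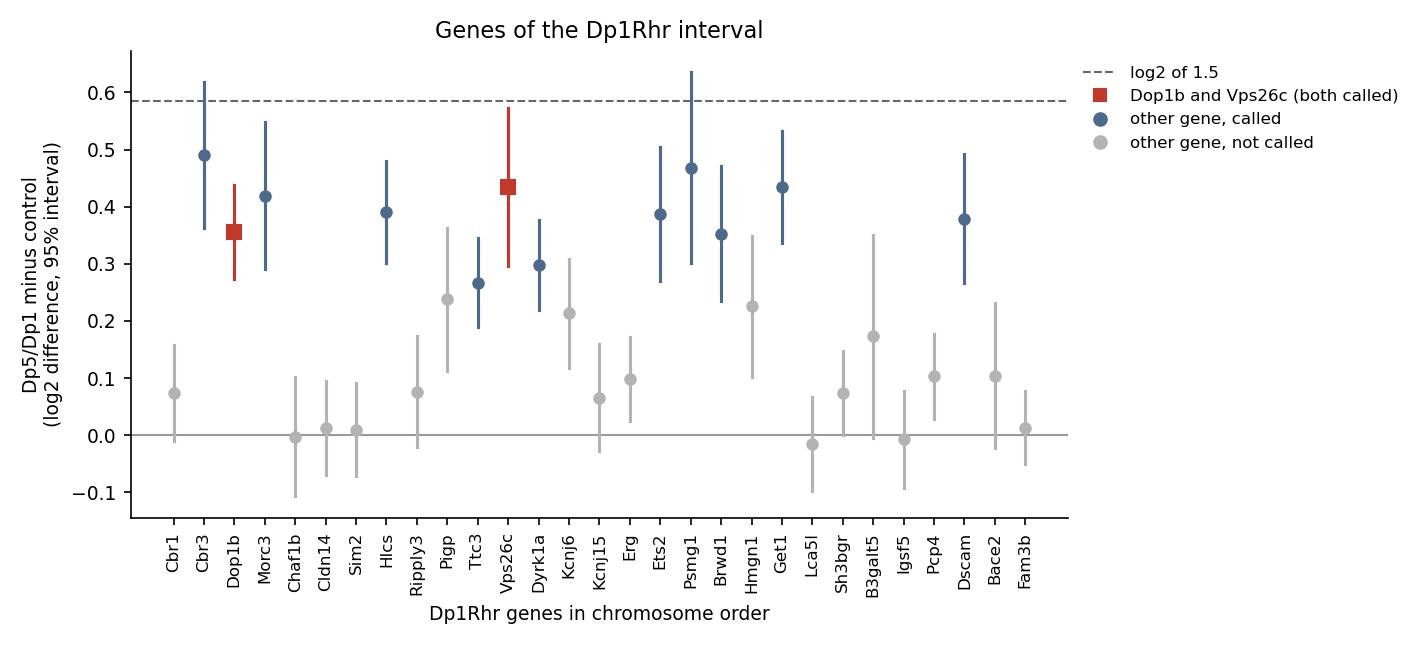
Log2 difference of Dp5/Dp1 minus control with 95% intervals (vertical axis) for the 29 listed genes of the Dp1Rhr interval. Genes stand in chromosome order (horizontal axis, not to scale), with Dop1b and Vps26c as red squares. Both lie among the called genes, which run from 0.27 to 0.49, and genes that were not called lie among them along the interval.

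Variation between mice of one group was shared by some members. After each gene's group mean was taken off, Vps35 and Vps26a, which bind each other in retromer, correlated at r = 0.94 (rho = 0.95) over the 10 arrays, and at 0.95 without the 2 farthest arrays. Of 19937 other genes, 1 correlated higher with Vps35. Vps26b did not share that pattern (r = -0.25 with Vps35) and among the members correlated highest with Snx27 (r = 0.87), which dropped to 0.58 without Dp5/Dp1 replicate 1 and control replicate 3. 78 genes correlated higher with Snx27 than Vps26b did. The pairs of Vps35 with Vps26a and of Snx27 with Vps26b were picked as the highest of all member pairs. Dop1b and Vps26c correlated at r = 0.48 (rho = 0.44), and 2620 genes correlated higher with Dop1b. These are descriptions over arrays that share a normalization, with no test.

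The genes most like Dop1b in these deviations were Vxn (r = 0.97), Tdrp (r = 0.94) and St3gal5 (r = 0.94), and those most like Vps26c were Cnppd1 (r = 0.99), Zbtb41 (r = 0.96) and Vmn2r65 (r = 0.95). None of these 6 genes was called between the groups, with differences of -0.01 to 0.09. They were picked as the highest of all genes over 10 arrays, with predicted gene models left out. Vmn2r65 was dim, at 4.75 in Dp5/Dp1 and 4.72 in control mice, below the array medians of 6.73 to 6.80.

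The wider sorting machinery was read through 10 lists with 151 measured genes. None was called in either direction, 76 had a higher and 75 a lower mean in Dp5/Dp1, and their median difference was 0.00080, against 0.0019 over all genes. At an unadjusted p under 0.05 there were 2 higher, Commd3 and Tfrc (1.32%), and 3 lower, Snx17, Ap1s2 and Washc1 (1.99%), shares below those of all genes.

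Among the partners of Vps26c, the 16 genes of retriever and the linked CCC complex had a median difference of 0.02. Snx17, the cargo adaptor of retriever, measured 9.82, 9.65, 9.81, 9.78 and 9.84 in Dp5/Dp1 mice, against 9.95, 9.88, 9.89, 9.91 and 9.90 in control mice. The highest Dp5/Dp1 array stayed below the lowest control, as for 0.321% of all genes. Over all genes, a further 0.762% were higher without overlap. Snx17 was the only one of the 151 listed genes without overlap in either direction, a share not above that of all genes. Its difference of -0.13 ± 0.04 passed an unadjusted threshold of 0.05 and not the adjustment (limma adjusted p = 0.64). The CCC subunits Commd3 and Commd6 differed by 0.11 and 0.10 (limma adjusted p = 0.746 for Commd3). The 8 WASH genes, which build actin on endosomes, had a median of -0.01, with Washc1 at -0.07, Washc4 at -0.08 and the actin capping subunit Capzb at 0.07.

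Of the 14 retromer partners, Snx32, a sorting nexin, differed by 0.15, Rab29, a small GTPase, by 0.07 and Dnajc13, an endosomal chaperone, by -0.09. In the 11 genes around DOP1 and MON2, 8 had a lower mean in Dp5/Dp1. The paralogue Dop1a differed by -0.07 ± 0.05, the flippase Atp9a by -0.07 ± 0.04 and the Golgi exchange factor Arfgef1 by -0.07 ± 0.05. None of these passed an unadjusted p of 0.05.

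The tethers that receive endosomal carriers were split to both sides. In GARP and EARP, Vps52 differed by 0.06, Vps50 by -0.05 and Vps54 by -0.08, and in HOPS and CORVET, Vps41 by 0.06, Vps16 by 0.05 and Vps8 by -0.05. In the 27 ESCRT genes, which sort cargo towards the lysosome, Chmp5 and Chmp6 each differed by 0.08 and Vps37a by -0.12. No gene of these lists passed an unadjusted p of 0.05.

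Among 22 clathrin adaptor genes, the AP-1 subunit Ap1s2 differed by -0.16 ± 0.06 (limma adjusted p = 0.806), Ap1g1 by -0.06 and Ap1s3 by 0.06. Among 22 genes of the early and recycling endosome, the lipid kinase Pikfyve differed by -0.07 and the GTPases Rab22a and Rab4a each by 0.06. The sorted cargo receptors had the lowest median, -0.05, and 12 of 15 had a lower mean in Dp5/Dp1. Sorl1, a sorting receptor of the amyloid precursor protein, differed by -0.06 ± 0.03, and Lrp1, a lipoprotein receptor, by -0.12 ± 0.06. The transferrin receptor Tfrc stood on the other side at 0.26 ± 0.10 (limma adjusted p = 0.806), with 2 Dp5/Dp1 arrays above the highest control.

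**Figure D5:**
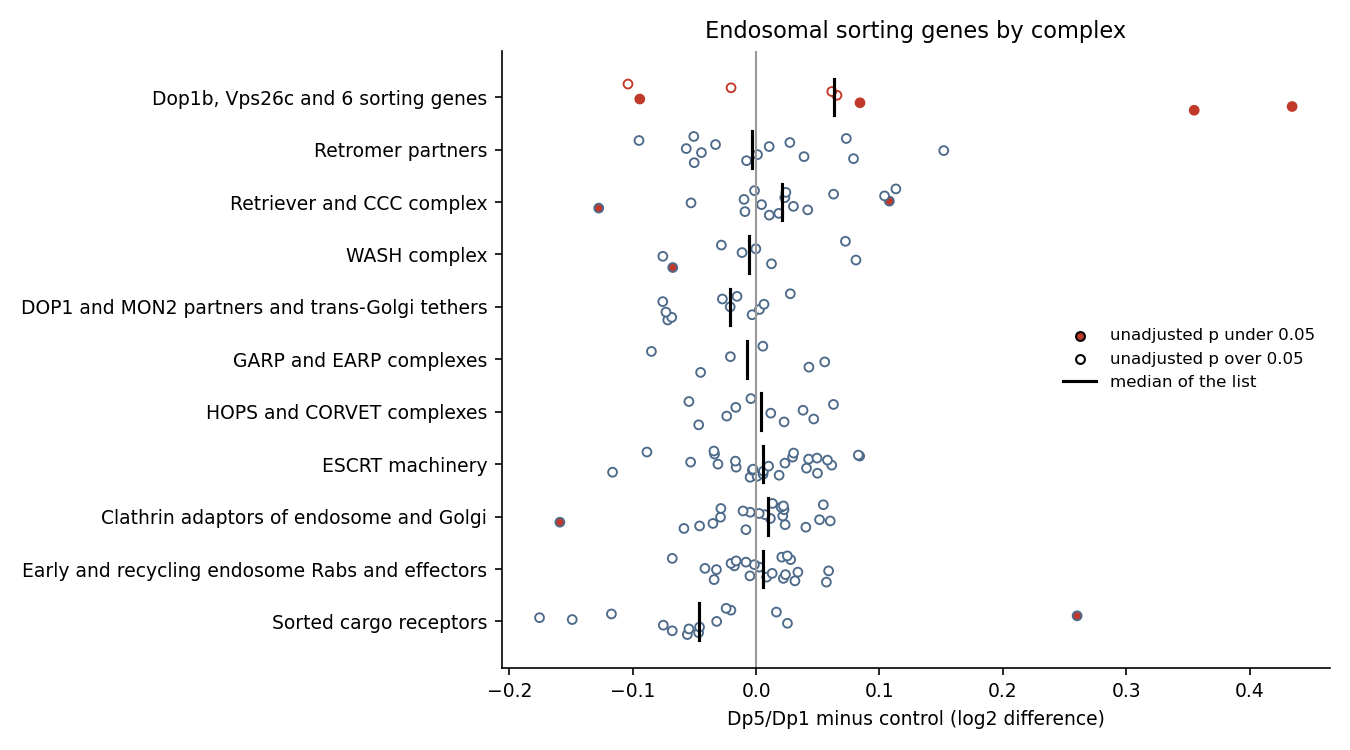
Log2 difference of Dp5/Dp1 minus control (horizontal axis) for each gene of the 8 members (top row) and the 10 lists, filled where the unadjusted p was under 0.05, with the list median as a black bar. Dop1b and Vps26c stand apart at 0.36 and 0.43, and the 151 listed genes run from -0.18 to 0.26.

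Across the series, the mean over the other 27 Dp1Rhr genes ran from 8.26 to 8.31 in Dp5/Dp1 and from 8.08 to 8.10 in control arrays, and the mean over 82 Dp5Yah genes by position from 7.28 to 7.34 in Dp5/Dp1 and from 7.09 to 7.17 in control arrays, so each Dp5/Dp1 array lay above each control array in both intervals. Hippocampal neuron markers lay between 10.19 and 10.30 in Dp5/Dp1 and between 10.20 and 10.27 in control arrays. Choroid plexus markers, 11 of 11 with a lower mean in Dp5/Dp1, ran from 7.05 to 8.77 in Dp5/Dp1 and from 6.94 to 9.17 in control arrays, and thalamus markers, 8 of 8 lower, from 7.91 to 8.27 in Dp5/Dp1 and from 8.12 to 8.79 in control arrays. Medial habenula markers, 8 of 9 higher, ran from 7.01 to 8.27 in Dp5/Dp1 and from 6.96 to 7.45 in control arrays. No gene of any marker list was called. Of 7 endothelial markers 4 had a higher mean in Dp5/Dp1, 3 of them at an unadjusted p under 0.05 (42.9%, against 3.39% of all genes), and the list ran from 8.71 to 8.84 in Dp5/Dp1 and from 8.59 to 8.80 in control arrays. The tight junction gene Cldn5 differed by 0.25 ± 0.07 (limma adjusted p = 0.491). Flt1, another of the brightest of the endothelial list, differed by -0.08 ± 0.05 (limma adjusted p = 0.845). Of 8 astrocyte markers 6 had a lower mean, 2 of them at an unadjusted p under 0.05, against 2.67% of all genes. 1 of these 2, the glutamate transporter Slc1a2 (-0.07 ± 0.03), was lower without overlap, as were 0.321% of all genes. Slc1a3, also among the brightest of the astrocyte list, differed by 0.02 ± 0.05 (limma adjusted p = 0.958). The astrocyte list ran from 10.51 to 10.68 in Dp5/Dp1 and from 10.59 to 10.76 in control arrays. An unadjusted p under 0.05 was also reached by 1 thalamus marker, which was lower. The same held for 1 medial habenula marker and 1 hippocampal neuron marker, both higher, and for no choroid plexus marker. The oligodendrocyte and microglia lists had medians of 0.03 and -0.01, with no gene at an unadjusted p under 0.05. With choroid plexus and habenula levels as covariates, the difference of Dop1b was 0.37 (limma adjusted p = 0.00462). The other 6 members kept their sign and were not called. The part of the other marker lists in these results was not tested.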

How the data were processed

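Total RNA of the hippocampus was hybridised to 10 arrays. The authors normalized them by RMA and deposited log2 expression values. The submitters' notes name RMA, limma and mm10, without versions. Of 35556 probe sets, 21789 were annotated with 1 gene symbol. The brightest probe set of each gene was read, leaving 19938 genes, and array medians lay between 6.73 and 6.80. Each array's group was taken from its condition label. The mutant arrays' titles read Dp5Yah, followed by Dp5Dp1 model in brackets, and control titles say reanalysis. The single lines that share them are not analysed here. The labels and the study's methods differ on the substrain and the RNA amount.

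Groups were compared by a two-sided moderated test without covariates (lmFit, eBayes) of limma 3.58.1 under R 4.3.3. The genes named are the 8 members, the 3 with the lowest p in each sorting list (none being called), the neighbours of the triplicated pair and the 3 genes most like each. Marker genes named were among the brightest of their list. Members, lists and tests were chosen with earlier results of these data known. The limma step was tested on simulated data. Of the 157 genes listed for sorting, 151 were measured. Alternatives were other filters, normalizations, variance models, probe set rules, a replicate block, marker covariates, left-out arrays and FCROS. The number of arrays limits the precision.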

Additional observations from a re-analysis of the deposited data

Results flagged for a closer look

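No value of the 8 members stood apart within its group. The 58 genes examined took marker genes only from the brightest of their lists. In 5 of the 116 sets of 5 values, the lowest array lay far from the other 4. Chance gives about 1 in 20, so this count is not above that share. Dp5/Dp1 replicate 1 was low in Atp9a, the flippase that works with MON2, at 11.09 against 11.19 to 11.24 in the other Dp5/Dp1 arrays. The same array was low in Vps50, an EARP subunit, at 8.72 against 8.82 to 8.85. Control replicate 2 was low in the ESCRT gene Chmp5, at 10.77 against 10.87 to 10.89 in the other control arrays. Of the marker genes, Dp5/Dp1 replicate 2 was low in the endothelial gene Cldn5, at 9.72 against 9.94 to 9.99, and control replicate 3 in the oligodendrocyte gene Cnp, at 11.94 against 12.06 to 12.10.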

How the results depend on the processing

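Of 232 recomputed differences and gaps, 224 kept their direction and their side of the threshold. Some alternatives, such as the probe set rules, could not change the difference of a member, so this count is not one of independent checks. The 41 genes called became 57 with every probe set tested separately, 26 with the replicate block, 21 without Dp5/Dp1 replicates 2 and 5 (3 against 5 arrays), 1008 by FCROS and 29 to 39 when 1 array was left out. FCROS passed 6 of the 151 sorting genes, 3 up and 3 down, against 0 called by limma. That share was below the 5.06% of all genes that FCROS passed. The method itself largely sets the 5.06%, so its 1008 genes are not a count comparable with the 41 of limma. The Dop1b difference stayed between 0.34 and 0.39 (highest limma adjusted p = 0.0341, with the replicate block). The Vps26c difference ran from 0.390 to 0.485 without single arrays, 2 of 10 of which ended the call. It was 0.48 without Dp5/Dp1 replicates 2 and 5 (limma adjusted p = 0.0548) and 0.44 with both marker covariates (adjusted p = 0.084). The Mon2 difference ran from -0.041 to 0.0017 without single arrays, turning sign without Dp5/Dp1 replicate 1. The deviations of same-numbered arrays correlated at -0.35 to 0.29, so the numbers were not taken as pairs. With them as a replicate block, exact sign flips gave an adjusted p = 0.0833 for the gaps of 0.35, 0.53 and 0.18. Over 5 pairs their smallest unadjusted p is 0.0625, so they could not pass 0.05 and say nothing of stability, and limma kept both calls of members. The causes were not tested.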
